A study of Trichoderma reesei with 4 samples.

Results

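The genes of the filamentous ascomycete Trichoderma reesei described here were listed for enzymes that act on the fungal cell wall. They are listed as chitinases of glycoside hydrolase family GH18, hexosaminidases of family GH20 and beta-1,3-glucanases of families GH55 and GH17. They were taken as a list of 32 gene identifiers that names these families, without a rule on measured values. The family of a gene without a symbol rests on the order of that list and on public knowledge of enzyme families, not on an annotation in the data. Of the 32 genes, 31 were among the 9126 features of the deposited table, 18 of GH18, 3 of GH20, 6 of GH55 and 4 of GH17. The remaining one, TRIRE2_124526, was not analysed here. A gene symbol was given for 18 of the 31 in the RefSeq gene table, and the others are named by identifier. Sporulation was sampled after 3, 6 and 9 h and set against mycelium (0 h), all of QM9414, a mutant strain that the labels describe as a low cellulase producer. Conidiation was induced on malt extract agar covered with cellophane, from which the mycelium was scraped, and each time stands for 2 biological replicas. No culture kept from sporulating was sampled at the later times, so sporulation and time on the plate cannot be told apart. Total RNA was measured on a gene array in 1 colour (Cy3), and levels are log2 expression after RMA, printed as mean ± SD of the 2 replicas of a time (n = 2).

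The wall of a filamentous fungus is built around chitin, a polymer of N-acetylglucosamine, and beta-1,3-glucan. Chitinases cut within or along chitin chains, hexosaminidases release N-acetylglucosamine from the short fragments, and beta-1,3-glucanases cut the glucan. Trichoderma carries many such genes and is known for using these enzymes against other fungi, and the same enzyme families act on its own wall when hyphae grow, branch, age and form spores.

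The gene of the marker enzyme by which the submitters followed conidiation, lxr1 for D-mannitol dehydrogenase, rose 2.58-, 3.93- and 3.8-fold above mycelium at 3, 6 and 9 h. The median level over all features lay between 11.53 and 11.56 at the 4 times, and the median SD of the replicas was between 0.082 and 0.099 over all features and between 0.087 and 0.13 over the 31 genes. As a guide to the level of an absent gene, 3 features for the MAT1-1 mating type, which the strain is not expected to carry, had means between 4.0 and 5.53, with 1 replica at 5.90. The means from 5.18 up and that replica belong to 1 feature, and the others lay between 4.0 and 4.23, so the upper end of the range rests on 1 feature. Of the 31 genes, 2, TRIRE2_56894 and chi18-15, had means within the MAT1-1 range of 4.0 to 5.53 at all times, and 4 more, chi18-8, chi18-12, chi18-14 and chi18-17, lay within it at 1 time or more. The array is of bulk RNA, in which fewer cells of a type and less RNA per cell cannot be told apart.

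Chitinase and glucanase genes changed in both directions, and in no comparison did all genes of a family pass the adjusted p and the 2-fold threshold one way. A gene is said to have risen or fallen where limma's moderated test gave an adjusted p (Benjamini-Hochberg, over all features) under 0.05 and the change was at least 2-fold, a log2 change of 1. At 3 h against 0 h, 5 of the 31 genes rose and 3 fell, where 6.77% of all features rose and 4.80% fell. At 6 h against 0 h, 2 rose and 2 fell, against 6.68% and 4.27% of all features. At 9 h against 0 h, 1 rose and 4 fell, against 7.48% and 5.40%. As shares, 25.8% of the 31 genes were called at 3 h, 12.9% at 6 h and 16.1% at 9 h, where 11.6%, 11.0% and 12.9% of all features were. Median log2 changes of the 31 genes were -0.09, -0.15 and -0.15 at 3, 6 and 9 h, beside -0.05, -0.03 and -0.04 over all features. Over the whole course, 12 of 31 genes passed limma's F test over the times and were at least 2-fold away from 0 h at 1 time or more, against 18.9% of all features. By that F test alone 22 passed, against 57.3%, and 14 had a p under 0.05 in the authors' deposited table, against 39.0%. The 12 were spread over the families, with 6 in GH18, 1 in GH20, 4 in GH55 and 1 in GH17. Their highest mean was at 0 h in 4, at 3 h in 5, at 6 h in 1 and at 9 h in 2. Of the 1727 features changed by the same rule, 680, 398, 209 and 440 had their highest mean at these times. These made up 7.45%, 4.36%, 2.29% and 4.82% of all features. Of the 25 genes with means above the MAT1-1 range at both times compared, 4 rose and 1 fell at 3 h, 1 rose at 6 h, and 1 rose and 2 fell at 9 h, where 11.7%, 10.7% and 12.9% of the features so chosen changed. By adjusted p alone, without the fold threshold, 8 of 31 were higher and 9 lower at 3 h, 17 in all, where 20.0% of all features were higher, 23.9% lower and 43.8% either. At 6 h 8 were higher and 6 lower, 14 in all, beside 20.0%, 19.4% and 39.4%, and at 9 h 8 were higher and 11 lower, 19 in all, beside 22.7%, 25.1% and 47.7%. The comparisons with 0 h share the same control arrays, so their calls are not independent of each other.

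**Figure D1:**
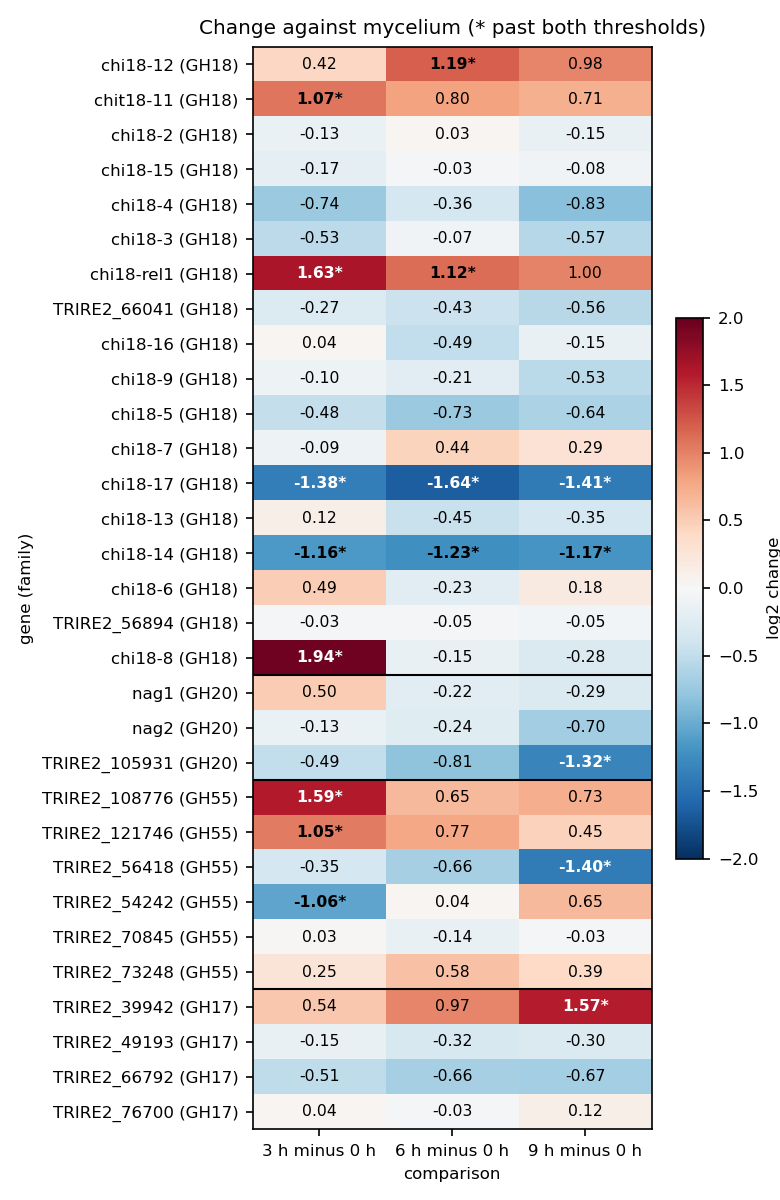
Log2 change of each of the 31 genes (rows, by family) against mycelium at 3, 6 and 9 h (columns); red is higher and blue lower than at 0 h, and an asterisk marks changes past both thresholds. Values drawn for chi18-8, chi18-12, chi18-14 and chi18-17 involve a mean within the MAT1-1 range, so their sizes have no rank, and the chi18-rel1 change at 9 h is just short of 2-fold.

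At 3 h 3 GH18 genes rose. The gene chi18-rel1, whose symbol marks it as chitinase-related, had a level of 12.31 ± 0.0046, 13.94 ± 0.17, 13.43 ± 0.009 and 13.30 ± 0.011 at 0, 3, 6 and 9 h. It was thus high at all 3 sporulation times, with no overlap between any of these replicas and those of mycelium. It rose 3.1-fold at 3 h (log2 change 1.63, SE 0.10, adjusted p = 1.37e-05) and 2.18-fold at 6 h (adjusted p = 0.000113). Its 9 h level was 1.99-fold above mycelium (adjusted p = 0.000165), just short of the fold threshold, and just past it after median centring. The gene chit18-11 measured 8.73 ± 0.23, 9.80 ± 0.23, 9.53 ± 0.061 and 9.44 ± 0.009 at 0, 3, 6 and 9 h, again lowest in mycelium. It rose 2.1-fold at 3 h (adjusted p = 0.000709), and its log2 changes of 0.80 at 6 h and 0.71 at 9 h passed the adjusted p but not the fold threshold. Its nearest replicas of 3 h and 0 h were 0.75 log2 units apart, under 2-fold.

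The third, chi18-8, was high at 3 h and back at its mycelium level at 6 h. In Trichoderma this gene belongs to the chitinase subgroup with chitin-binding domains, related to the chitinase-like subunit of yeast killer toxins, and the RefSeq table lists it as a pseudogene. Its means were 4.56 ± 0.12, 6.50 ± 0.15, 4.41 ± 0.068 and 4.28 ± 0.014 at 0, 3, 6 and 9 h. The 3 h replicas, at 6.39 and 6.60, lay above all others, and the other 3 times were all within the MAT1-1 range. It rose by 1.94 log2 units at 3 h (SE 0.11, adjusted p = 7.87e-06), and the 3 h level was at least 1.51-fold higher, taking the highest MAT1-1 replica as the floor. Between 3 h and 6 h it fell by 2.09 log2 units (adjusted p = 2.29e-05). Among the 5226 other features that passed the F test, the 5 whose 4 time means followed those of chi18-8 most closely were TRIRE2_107775, TRIRE2_103458, TRIRE2_103191, TRIRE2_60418 and TRIRE2_60467, with Pearson's r between 0.9966 and 0.9999 over the 4 times. These correlations rest on 4 points that share the same arrays and are a description only.

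One more GH18 gene, chi18-12, rose at 6 h, with a level of 4.69 ± 0.16, 5.11 ± 0.58, 5.88 ± 0.042 and 5.67 ± 0.0037 at 0, 3, 6 and 9 h. The 3 h replicas were far apart, at 4.70 and 5.52, while those of 6 h and 9 h lay close together and above mycelium. The 6 h change was 1.19 (SE 0.23, adjusted p = 0.00517), and the 9 h change of 0.98 passed the adjusted p only. Its 0 h and 3 h means were within the MAT1-1 range, and since its 6 h mean was under the highest MAT1-1 replica of 5.90, no bound on the fold is given. After quantile normalization the 9 h change was 1.02, past the fold threshold too. In the authors' deposited table this gene has p = 0.0984, the one of the 12 changed genes whose deposited p is over 0.05.

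A pair of chitinase genes fell at every sporulation time. The level of chi18-17 was 5.82 ± 0.37, 4.44 ± 0.09, 4.18 ± 0.14 and 4.41 ± 0.083 at 0, 3, 6 and 9 h, and that of chi18-14 was 5.71 ± 0.21, 4.56 ± 0.33, 4.48 ± 0.06 and 4.54 ± 0.015 at 0, 3, 6 and 9 h. In both, the mycelium replicas were the highest and those of the 3 later times lay together, with no overlap. The changes of chi18-17 were -1.38 at 3 h (SE 0.17, adjusted p = 0.000454), -1.64 at 6 h (adjusted p = 0.00021) and -1.41 at 9 h (adjusted p = 0.000362). Those of chi18-14 were -1.16, -1.23 and -1.17, with adjusted p of 0.000936, 0.000802 and 0.000793. Both genes had means within the MAT1-1 range after 0 h, and mycelium means above it but under the highest MAT1-1 replica of 5.90, so no bound on the fold is given. Between the nearest replicas of 3 h and 0 h the difference of chi18-14 was -0.77, under 2-fold.

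**Figure D2:**
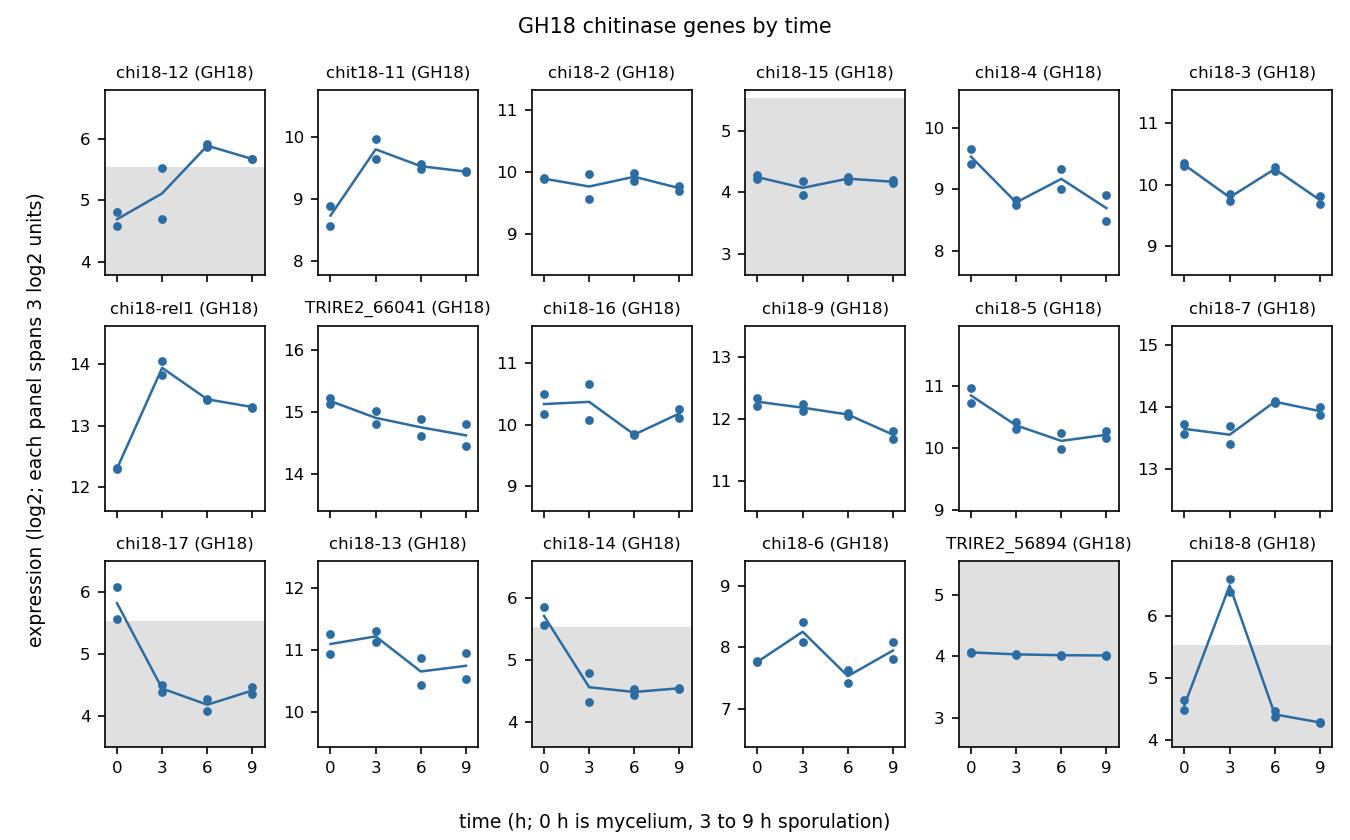
Log2 expression of the 18 GH18 genes by time (h); points are the 2 replicas, rebuilt from mean and SD, the line joins the means, each panel spans 3 log2 units, and grey marks levels up to the highest MAT1-1 mean of 5.53. Only chi18-8 has a peak at 3 h and then returns to the grey range, chi18-rel1 and chit18-11 step up at 3 h, and the means of chi18-14 and chi18-17 are above the grey range at 0 h alone.

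The other 12 GH18 genes did not reach 2-fold against 0 h at any time. Of these, 7 passed the adjusted p at some time, 5 of them with levels lower than in mycelium and 2 with higher ones. The gene chi18-5, which encodes the best-studied endochitinase of Trichoderma, measured 10.85 ± 0.18, 10.37 ± 0.087, 10.12 ± 0.19 and 10.22 ± 0.077 at 0, 3, 6 and 9 h, highest in mycelium, with a log2 change at 6 h of -0.73 (95% interval -1.04 to -0.43, adjusted p = 0.00343). The gene chi18-4 was at 9.53 ± 0.17, 8.79 ± 0.065, 9.17 ± 0.24 and 8.69 ± 0.30 at 0, 3, 6 and 9 h, and its change at 9 h was -0.83 (95% interval -1.24 to -0.43, adjusted p = 0.0053), and both intervals include a 2-fold fall. The gene chi18-3 alternated, at 10.32 ± 0.033, 9.79 ± 0.083, 10.25 ± 0.04 and 9.75 ± 0.087 at 0, 3, 6 and 9 h. Its 3 h and 9 h replicas lay below those of 0 h and 6 h, and the changes at 3 h (-0.53), between 3 h and 6 h (0.46) and between 6 h and 9 h (-0.50) each passed the adjusted p (0.00336, 0.0139 and 0.0183) and stayed under 2-fold. The gene chi18-9, of the same subgroup as chi18-8, was at 12.28 ± 0.088, 12.18 ± 0.085, 12.07 ± 0.039 and 11.74 ± 0.088 at 0, 3, 6 and 9 h, with a change at 9 h of -0.53 (adjusted p = 0.00359) and no peak at 3 h.

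The brightest uncalled GH18 genes differed from mycelium in opposite directions by small amounts. TRIRE2_66041 was at 15.17 ± 0.061, 14.90 ± 0.15, 14.75 ± 0.19 and 14.62 ± 0.25 at 0, 3, 6 and 9 h, near the top of a scale that ended at 15.93, and differed from mycelium by -0.56 at 9 h (adjusted p = 0.0186). The gene chi18-7 was at 13.64 ± 0.11, 13.55 ± 0.21, 14.08 ± 0.019 and 13.93 ± 0.094 at 0, 3, 6 and 9 h, with a change at 6 h of 0.44 (adjusted p = 0.0255). For chi18-6 the level was 7.76 ± 0.011, 8.25 ± 0.23, 7.53 ± 0.15 and 7.95 ± 0.19 at 0, 3, 6 and 9 h, a change of 0.49 at 3 h (adjusted p = 0.0289) that was followed by one of -0.72 between 3 h and 6 h (adjusted p = 0.0121). The remaining 5, chi18-2, chi18-13, chi18-15, chi18-16 and TRIRE2_56894, did not pass the adjusted p against 0 h at any time. For chi18-13 the 6 h change of -0.45 had a 95% interval of -0.91 to 0.02, which reaches to nearly a 2-fold fall, while that of chi18-2 at 9 h was -0.48 to 0.17. The levels of chi18-2, chi18-13 and chi18-16 ranged between 9.73 and 11.22, well above the MAT1-1 range in which chi18-15 and TRIRE2_56894 lay. Across the 18 GH18 genes, 3 rose and 2 fell at 3 h, 2 rose and 2 fell at 6 h, and 2 fell at 9 h. The rises at 3 h include chi18-rel1, marked as chitinase-related only, and chi18-8, listed as a pseudogene, and those at 6 h include chi18-rel1. The calls made up 27.8%, 22.2% and 11.1% of the family at 3, 6 and 9 h, beside 11.6%, 11.0% and 12.9% of all features. The adjusted p alone called 4 of the 18 higher and 5 lower at 3 h, and 4 higher and 3 lower at 6 h. At 9 h it called 3 higher and 7 lower. Either way these were 9, 7 and 10 genes, beside 43.8%, 39.4% and 47.7% of all features.

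The 3 hexosaminidase genes of GH20 were all lower at 9 h than at 3 h by adjusted p, each by less than 2-fold. The gene nag1, a known N-acetylglucosaminidase of Trichoderma, was at 12.03 ± 0.033, 12.53 ± 0.11, 11.81 ± 0.12 and 11.74 ± 0.11 at 0, 3, 6 and 9 h. Its 3 h replicas were the highest, 0.50 above 0 h (adjusted p = 0.00813), and the step between 3 h and 6 h was -0.72 (adjusted p = 0.00372). The second known N-acetylglucosaminidase gene, nag2, was at 11.41 ± 0.35, 11.28 ± 0.021, 11.17 ± 0.20 and 10.71 ± 0.067 at 0, 3, 6 and 9 h. Its 9 h replicas were below all others, with a change against 0 h of -0.70 (95% interval -1.09 to -0.31, adjusted p = 0.0107). The third, TRIRE2_105931, was lower at each time than at the one before, at 11.65 ± 0.11, 11.15 ± 0.029, 10.84 ± 0.0055 and 10.33 ± 0.017 at 0, 3, 6 and 9 h, and no replicas of different times overlapped. Its change was -0.49 at 3 h (adjusted p = 0.00396) and -0.81 at 6 h (adjusted p = 0.000392), and at 9 h it had fallen 2.49-fold (log2 change -1.32, SE 0.09, adjusted p = 2.04e-05). The differences between 9 h and 3 h were -0.79 for nag1, -0.57 for nag2 and -0.82 for TRIRE2_105931, with adjusted p of 0.00167, 0.0404 and 0.000563, where 12.9% of all features were lower by that criterion.

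Of the 6 GH55 beta-1,3-glucanase genes, 4 changed, 2 of them highest at 3 h, 1 lowest at 3 h and 1 lower at each time than at the one before. Over all features 18.9% changed at some time, and changed features with their highest mean at 3 h made up 4.36%. The latter were 398 of the 1727 changed features. TRIRE2_108776 was at 7.79 ± 0.28, 9.38 ± 0.083, 8.43 ± 0.13 and 8.52 ± 0.063 at 0, 3, 6 and 9 h, with mycelium lowest and 3 h highest and no overlap between them. It rose 3.01-fold at 3 h (log2 change 1.59, SE 0.15, adjusted p = 8.98e-05), and the step between 3 h and 6 h was -0.94 (adjusted p = 0.00346), short of 2-fold. TRIRE2_121746 was at 13.54 ± 0.16, 14.58 ± 0.10, 14.31 ± 0.28 and 13.99 ± 0.058 at 0, 3, 6 and 9 h, also lowest in mycelium and highest at 3 h. It rose 2.06-fold at 3 h (adjusted p = 0.000982), its nearest replicas being 0.86 log2 units apart, and its later changes of 0.77 and 0.45 were under 2-fold.

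TRIRE2_54242 took the opposite course, at 13.51 ± 0.16, 12.45 ± 0.0039, 13.55 ± 0.0083 and 14.16 ± 0.087 at 0, 3, 6 and 9 h. The 3 h replicas were the lowest of the 8 and those of 9 h the highest, with no overlap between either and mycelium. It fell 2.09-fold at 3 h (log2 change -1.06, SE 0.11, adjusted p = 0.000156) with a difference of -0.94 between the nearest replicas, and rose 2.15-fold between 3 h and 6 h (adjusted p = 0.000425). The next step, between 6 h and 9 h, was 0.60 (adjusted p = 0.0137), which took it to 0.65 above mycelium (adjusted p = 0.00183), under 2-fold. TRIRE2_56418 was lower at each time than before, at 10.32 ± 0.05, 9.97 ± 0.06, 9.65 ± 0.05 and 8.92 ± 0.12 at 0, 3, 6 and 9 h, and had fallen 2.63-fold by 9 h (log2 change -1.40, SE 0.10, adjusted p = 2.09e-05). More of this drop lay between 6 h and 9 h (-0.73, adjusted p = 0.00589) than in either earlier step, -0.35 and -0.31, though the steps were not tested against each other. Of the remaining pair, TRIRE2_73248 was at 10.04 ± 0.034, 10.29 ± 0.073, 10.62 ± 0.17 and 10.43 ± 0.11 at 0, 3, 6 and 9 h, with a 6 h change of 0.58 (adjusted p = 0.00592). TRIRE2_70845 lay between 10.62 and 10.79 at all 4 times, and its 95% interval at 9 h, -0.29 to 0.22, leaves no room for a 2-fold change.

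The 4 beta-1,3-glucanase genes of GH17 held 1 that rose against mycelium, at 9 h, where 7.48% of all features rose. TRIRE2_39942 was at 10.11 ± 0.18, 10.65 ± 0.28, 11.08 ± 0.039 and 11.68 ± 0.10 at 0, 3, 6 and 9 h, each time higher than the one before and with no overlap between successive times. Its change was 0.54 at 3 h (adjusted p = 0.0226), 0.97 at 6 h (adjusted p = 0.00181) and 1.57 at 9 h (SE 0.15, adjusted p = 0.00011), where it had risen 2.97-fold. Among the 31 genes it was the only one with a mean that increased at every time, a course shown by 7.65% of all features. TRIRE2_66792 was lower at every later time, at 13.93 ± 0.093, 13.42 ± 0.13, 13.27 ± 0.20 and 13.26 ± 0.11 at 0, 3, 6 and 9 h, and its changes of -0.51, -0.66 and -0.67 passed the adjusted p and not the fold threshold. TRIRE2_49193, at 15.34 ± 0.13, 15.19 ± 0.047, 15.03 ± 0.21 and 15.05 ± 0.19 at 0, 3, 6 and 9 h, lay near the top of the scale, where differences between bright features can be compressed, and did not pass the adjusted p. Neither did TRIRE2_76700, which lay between 12.22 and 12.38, with a 95% interval at 9 h of -0.16 to 0.40.

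**Figure D3:**
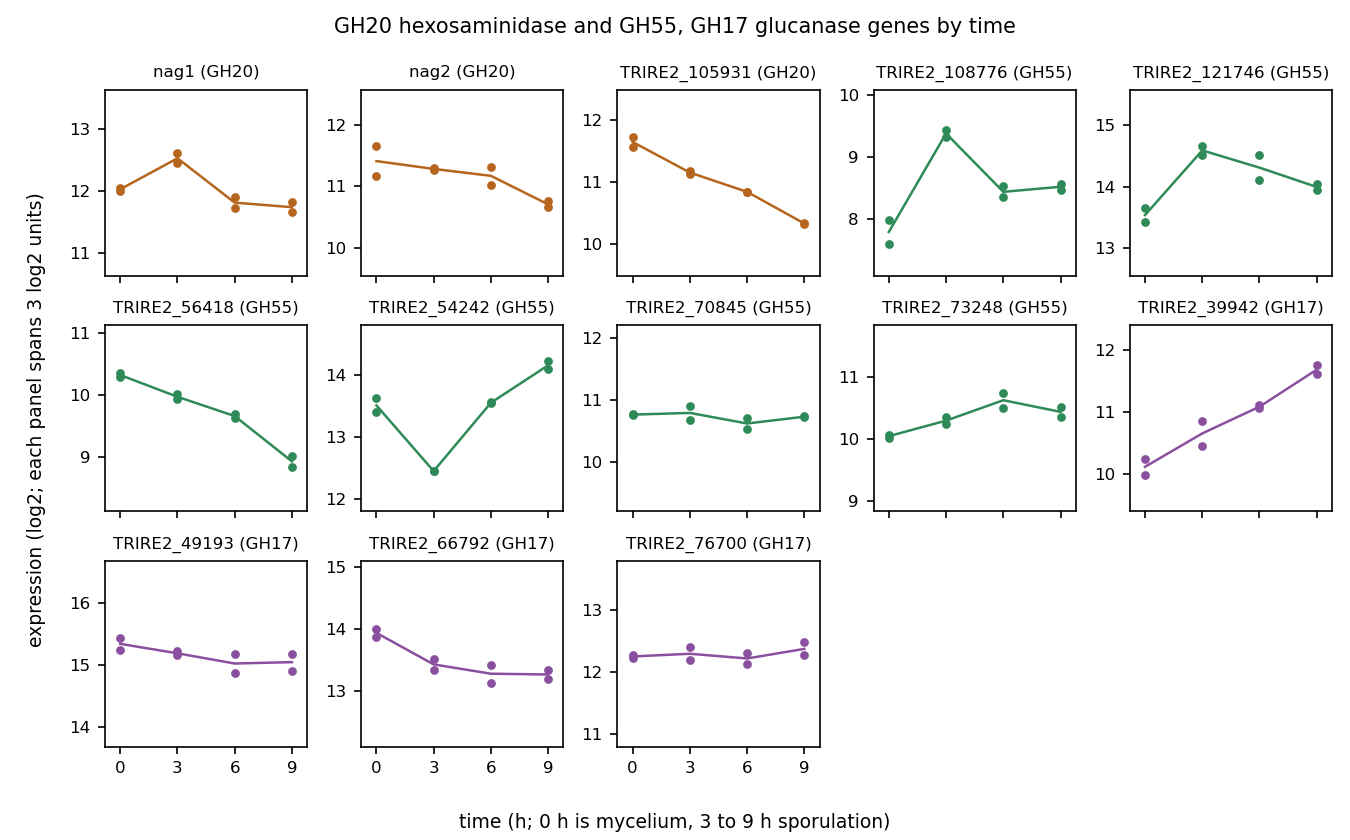
Log2 expression of the 3 GH20, 6 GH55 and 4 GH17 genes by time (h); points are the 2 replicas, rebuilt from mean and SD, the line joins the means, and each panel spans 3 log2 units. TRIRE2_105931 and TRIRE2_56418 step down throughout, TRIRE2_39942 steps up throughout, and TRIRE2_54242 is lowest at 3 h, where TRIRE2_108776 and TRIRE2_121746 are highest.

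Between successive sporulation times few of these genes changed. Between 3 h and 6 h 1 of 31 rose, TRIRE2_54242, and 1 fell, chi18-8, where 2.38% of all features rose and 2.62% fell. The adjusted p alone called 3 higher and 5 lower in that step, against 12.2% and 9.51% of all features and 21.8% either way. Between 6 h and 9 h limma's test called 0 of 31, where 1.12% of all features rose and 0.811% fell, 1.93% in all. With no fold threshold 2 were higher and 3 lower, against 5.33% and 7.98% of all features and 13.3% either way, and at an unadjusted p under 0.05 there were 3 higher and 6 lower, 9 in all, against 14.7% and 17.8% of all features and 32.5% either way. The adjusted-p calls were TRIRE2_54242 and TRIRE2_39942 upward and TRIRE2_56418, TRIRE2_105931 and chi18-3 downward, each by less than 2-fold.

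The comparison of 9 h with 3 h asks whether late sporulation differs from its onset. The difference itself uses no mycelium array, while its error is estimated from the replicas of all 4 times. At 9 h TRIRE2_54242 was 3.27-fold above its 3 h level (adjusted p = 2.87e-05) and TRIRE2_39942 2.04-fold above (adjusted p = 0.00207). The gene chi18-8 was lower by a log2 difference of -2.22 (adjusted p = 1.12e-05), and TRIRE2_56418 by one of -1.04 (adjusted p = 0.000229). The 9 h mean of chi18-8 lay within the MAT1-1 range, which limits the size of its difference. These 2 rises and 2 falls, 12.9% of the 31 genes, stand beside 3.02% and 3.50% of all features, 6.52% in all. For TRIRE2_39942 and TRIRE2_56418 the nearest replicas of these times differed by 0.76 and -0.92, under 2-fold. The adjusted p alone called 2 genes higher and 9 lower, beside 13.8% and 12.9% of all features and 26.7% either way. The 9 lower ones include all 3 hexosaminidase genes, 3 GH55 glucanase genes and 3 GH18 genes. Of the 31 differences 24 were negative, beside 4349 of the 9126 features. The median was -0.15 where that of all features was 0.02. Several of the 24 were very small, such as those of chi18-2 (-0.03) and chi18-3 (-0.04). The steps of chi18-rel1 (-0.64, adjusted p = 0.00342), TRIRE2_108776 (-0.86, adjusted p = 0.0038) and TRIRE2_121746 (-0.59, adjusted p = 0.0235) left these genes, which rose at 3 h, between their 3 h and 0 h levels.

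**Figure D4:**
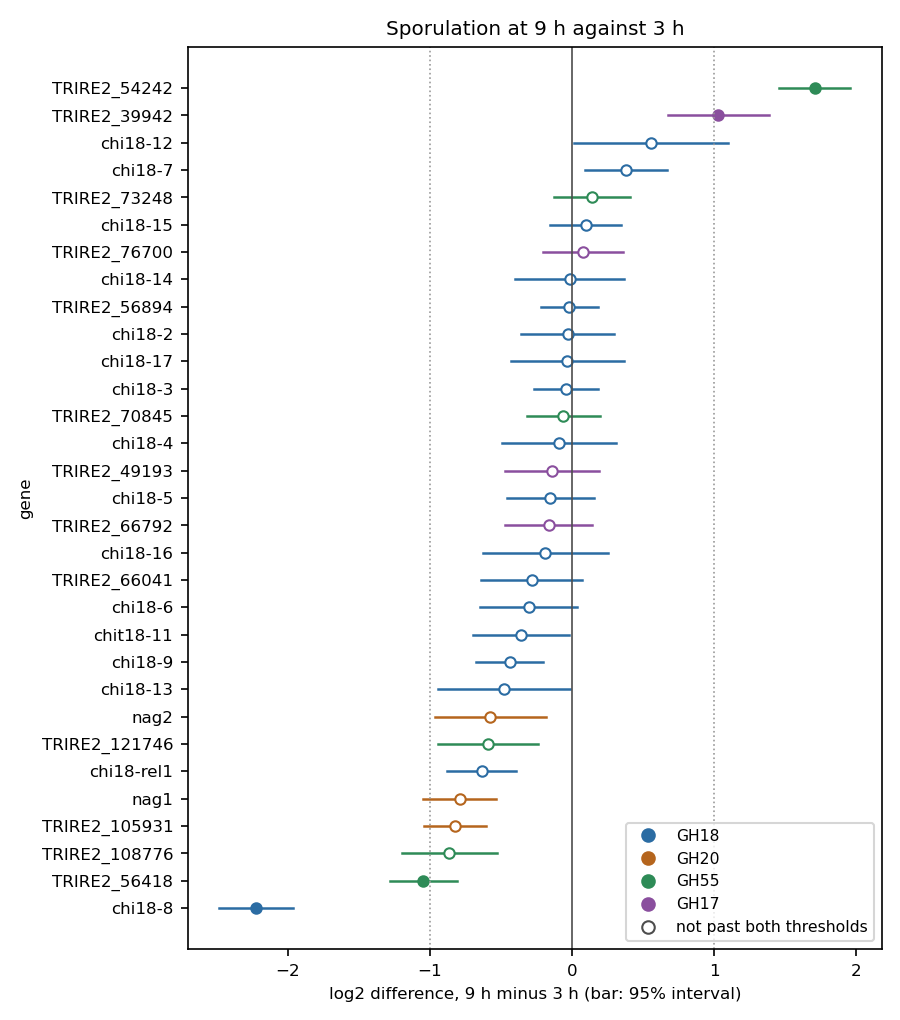
Log2 difference of each gene between 9 h and 3 h of sporulation (9 h minus 3 h), with its 95% interval, coloured by family; filled points are past both thresholds and dotted lines mark 2-fold. TRIRE2_54242 and TRIRE2_39942 lie above the 2-fold line on the positive side, and chi18-8 and TRIRE2_56418 beyond it on the negative side. Most other points are below 0, down to -0.86 for TRIRE2_108776.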

How the data were processed

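Total RNA of 4 times, with 2 biological replicas each, was measured on 1-colour NimbleGen arrays, per the labels. The authors deposited a mean log2 value and an SD per time and 1 p-value per feature, per the file headers. RMA is the tool that the submitters' processing notes name. The version of RMA, the genome build and the method behind the p-value are not given in the sources used here. A one-way analysis of variance from the means and SDs for 2 replicas, with Benjamini-Hochberg adjustment, matched the authors' deposited p-value within 1% for 98.78% of features, so the SD is taken as that of 2 replicas. Both deposited tables held the same means.

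From means and SDs, limma's residual variance follows exactly (4 residual degrees of freedom; prior degrees of freedom 3.82). limma 3.58.1 in R 4.3.3 (contrasts.fit, eBayes) was run over all 9126 features with all 4 times in 1 fit, adjusting p over all features, and tested on simulated data. This is the test the design gave for tables of means. Each p-value sets a difference of means against the spread between replicas, pooled over the 4 times and moderated over all features. Replica values follow from mean and SD, but not which array is which, so no array could be left out. Symbols come from the RefSeq table of assembly v2.0, which gives no products. A list of other wall genes by symbol (chitin and glucan synthases, glucanosyltransferases and others) matched 0 genes. All 31 genes are accounted for, with values by time for those called, the brightest uncalled ones and others needed to describe a family. The genes and lists were chosen with earlier results of these data known. The alternatives tried were normalization, centring, a low-level filter, fold thresholds, the variance prior, the times in the fit, nearest replicas, the authors' p-value and the MAT1-1 level. The number of arrays limits precision; the median SE of a log2 change was 0.12.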

Additional observations from a re-analysis of the deposited data

Results flagged for a closer look

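For 4 genes the change against mycelium at 9 h differed from that at 3 h, as tested by limma's comparison of 9 h with 3 h (adjusted p under 0.05 and at least 2-fold). Over all features 6.52% passed both thresholds in that comparison. The change of chi18-8 was -0.28 at 9 h and 1.94 at 3 h, a difference of -2.22. Its 0 h and 9 h means lay within the MAT1-1 range, which limits the size of these values. For TRIRE2_56418 the changes were -1.40 and -0.35, a difference of -1.04. TRIRE2_54242 had changes of 0.65 and -1.06, of opposite sign, a difference of 1.71. For TRIRE2_39942 they were 1.57 and 0.54, a difference of 1.03. Between the nearest replicas of 9 h and 3 h, TRIRE2_56418 and TRIRE2_39942 differed by -0.92 and 0.76, under 2-fold.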

How the results depend on the processing

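Quantile normalization, median centring, a trended variance prior and a fit of the 2 times compared kept all counts of changed genes within 1.5 times, and all 23 single-gene calls kept their side of the threshold in each. At 9 h chi18-rel1 passed both thresholds after median centring (1.002) and chi18-12 after quantile normalization (1.02). Leaving out features of low mean level, which kept 21 of 31 genes, gave 3 calls at 3 h, 1 at 6 h, 3 at 9 h, 1 between 3 h and 6 h and 6 at any time, beside 10.4%, 8.49%, 11.4%, 3.2% and 16.4% of the features kept. At 4-fold there were 0 against mycelium at 3, 6 and 9 h and at any time, beside 2.98%, 2.89%, 3.73% and 4.94% of all features, and 1 each for 6 h against 3 h (0.92%) and 9 h against 3 h (1.47%). At 1.5-fold there were 9 of 31 at 3 h (25.8% of all features), 12 at 6 h (23.1%) and 14 at 9 h (28.2%). At any time 16 were called at that threshold, beside 39.6% of all features. Between sporulation times it gave 5 for 6 h against 3 h (12.7%) and 3 for 9 h against 6 h (7.43%). For 9 h against 3 h it gave 9 (15.7%). By adjusted p alone there were 17, 14 and 19 against mycelium, 8, 5 and 11 for 6 h against 3 h, 9 h against 6 h and 9 h against 3 h, and 22 at any time, with the shares of all features given above. Using the gap between the nearest replicas left 4 at 3 h (8.29% of all features) and 2 for 9 h against 3 h (4.66%), and ended 6 of 23 single-gene calls: chit18-11, chi18-14, TRIRE2_121746 and TRIRE2_54242 at 3 h, and TRIRE2_56418 and TRIRE2_39942 for 9 h against 3 h. Leaving out genes in the MAT1-1 range was, like the authors' p-value, an alternative chosen after seeing the data. It left 5, 1 and 3 against mycelium and 1 for 6 h against 3 h (4.89% of features above that range). The authors' p-value with the 2-fold threshold gave 11 at any time, beside 16.6% of all features. For the low-level filter, the fold thresholds, adjusted p alone, the nearest replicas and the MAT1-1 range, fewer or more calls follow from the construction of the alternative. The authors' p-value is a different test, and the changed gene it leaves out is chi18-12, with a deposited p of 0.0984. No paired analysis was possible because the labels give no replicate numbers and the tables hold no values of single arrays. Levels near the MAT1-1 range limit the sizes for chi18-8, chi18-12, chi18-14 and chi18-17.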

Other observations

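Outside the list of 31 lie 2 genes with a chi18 symbol, and neither passed limma's F test (adjusted p = 0.41 for chi18-1 and 0.254 for chi18-rel2). The gene chi18-1 was at 8.14 ± 0.11, 8.03 ± 0.26, 7.89 ± 0.084 and 8.09 ± 0.011 at 0, 3, 6 and 9 h, and chi18-rel2, the second gene marked as chitinase-related, at 13.82 ± 0.047, 14.04 ± 0.0041, 14.03 ± 0.11 and 13.90 ± 0.15 at 0, 3, 6 and 9 h. For chi18-rel2 the 3 h change was 0.22 (95% interval -0.03 to 0.48, limma adjusted p = 0.141), beside 1.63 (95% interval 1.39 to 1.87) for chi18-rel1; the difference between these genes was not tested.

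Of the 31 genes, 3 shared one order of the time means, highest at 3 h, then 6 h, then 9 h, and lowest at 0 h: chi18-rel1, chit18-11 and TRIRE2_121746. That order was shown by 173 of the 1727 features changed at any time and by 4.87% of all features, and it was picked out after the values were seen. In 7 of the 31 genes the mean decreased at every time, in 22.6% where 6.93% of all features did so. They were nag2, TRIRE2_105931, TRIRE2_56418, TRIRE2_66792, chi18-9, TRIRE2_66041 and TRIRE2_56894, the last within the MAT1-1 range throughout. This order has no threshold on the size of a step. That of TRIRE2_66792 between 6 h and 9 h was -0.01 (limma adjusted p = 0.959). TRIRE2_66041 and TRIRE2_56894 did not pass limma's F test (adjusted p = 0.0568 and 0.947). Of the 7, only TRIRE2_105931 and TRIRE2_56418 were among the genes changed at any time.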
